A study of Homo sapiens with 4 samples.

Results

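The genes described here are 10 components of the transforming growth factor beta (TGF-beta) pathway, chosen by symbol from 64252 gene IDs in the count table: the ligand gene TGFB1, the receptor genes TGFBR1 and TGFBR2, the signal-carrying SMAD2, SMAD3 and SMAD4, the inhibitory SMAD6 and SMAD7, and the corepressor genes SKI and SKIL. Each symbol matched 1 row, and all 10 passed the filter on low counts. Their RNA-seq counts were compared in Jurkat cells with a hairpin RNA labelled sh-Scb, taken here as the control (2 libraries), and with one against SOX4 (sh-SOX4, 2 libraries). Jurkat is a human T cell acute lymphoblastic leukemia line, and SOX4 is a transcription factor that TGF-beta is known to raise in several cell types. Both groups are of the same line, and the sources used here give neither the target position of the hairpin nor the time after its delivery. Whether the libraries of a group stem from separate cultures is not stated. Each p-value thus reflects the spread between libraries alone, pooled in part over genes, and that spread may be technical. Bulk libraries cannot tell fewer cells that express a gene from less of its RNA in each cell.

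TGF-beta is secreted in a latent form and, once released, is bound by TGFBR2, a receptor kinase that phosphorylates and thereby activates its partner TGFBR1. TGFBR1 phosphorylates SMAD2 and SMAD3, which join SMAD4 and enter the nucleus to regulate transcription. SMAD6, SMAD7, SKI and SKIL (also called SnoN) act as brakes: the inhibitory SMADs act mostly at the receptors, and the SKI proteins bind SMAD complexes on DNA and repress their targets. In T cells this pathway is known for restraining proliferation and for guiding regulatory T cell fate.

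The libraries summed to between 29093287 and 36636219 counts. The counts of SOX4 were 10246 and 8344 under sh-Scb and fell to 6049 and 5914 under the hairpin, which left 71.1% of the control level (95% interval 66.4% to 76.1%). All 13 T cell markers were detected, and their summed level was 1890 to 1940 CPM (counts scaled to library size) in sh-Scb and 2240 to 2320 CPM in sh-SOX4. By the test described below, 8 of them were called higher, 2 lower and 3 not, which is 76.9% called against 44.1% of all IDs tested. All 13 had at least 10 CPM in 2 libraries, and among IDs at that level 66.2% were called. The 2 T cell markers that fell were CD247 and CD5, with log2 fold changes of -0.335 and -0.217. Marker sums of other cell types were below the T cell sum, and the myeloid, B cell and fibroblast sums moved with the group. The 8 myeloid markers summed to 20.5 to 23.5 CPM in sh-Scb and 42.7 to 43.0 CPM in sh-SOX4, with LYZ at 0 counts. In the same order, 6 B cell markers summed to 67.4 to 69.4 CPM and 15.1 to 16.7 CPM. The 5 fibroblast markers summed to 24.9 to 26.1 CPM and 17.6 to 18.0 CPM, with COL1A2 at 0 counts. Most of the rise in the myeloid sum was S100A9, at 4.22 ± 0.573 and 23.2 ± 0.225 CPM (SD, n = 2). S100A8 and AIF1 also rose, while CD68 fell from 6.70 ± 2.22 to 3.96 ± 0.329 CPM. Of the 2189 exonic bases of CD68, 1878 also lie in exons of other annotated genes. CD14, ITGAM and CSF1R were not called. Nearly all of the B cell sum was CD79A, at 66.6 ± 0.899 and 13.3 ± 0.204 CPM (SD, n = 2), while CD79B rose from 0.421 ± 0.0784 to 1.51 ± 0.852 CPM and PAX5 was not called. Nearly all of the fibroblast sum was COL1A1, at 25.1 ± 0.955 and 17.3 ± 0.085 CPM. Summed levels of 5 epithelial markers overlapped between the groups, at 0.767 to 1.26 CPM and 1.17 to 1.18 CPM. The part of these markers in the results below was not tested.

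TGFBR1, TGFBR2, SMAD2, SMAD3 and SMAD4 fell, by between 1.13-fold for SMAD2 and 1.91-fold for SMAD3. SMAD6, SKI and SKIL rose, by between 1.22-fold for SKI and 1.35-fold for SKIL. TGFB1 and SMAD7 did not pass the test. Among other genes that restrain the pathway, PMEPA1, PPM1A, NEDD4L and TGIF1 fell, with log2 fold changes of -0.89, -0.53, -0.48 and -0.55, of which NEDD4L and TGIF1 were named after their values were seen. Of the 10 genes chosen, 8 were called by edgeR's quasi-likelihood test at a Benjamini-Hochberg adjusted p under 0.05 over all 19897 IDs tested, 3 higher and 5 lower. Of all IDs tested, 44.1% were called, 23.2% higher and 20.9% lower. Scaled to library totals instead, where 44.7% of all IDs were called, 18.2% higher and 26.4% lower, 1 of the genes was called higher. Among the 10797 IDs with at least 10 CPM in 2 libraries, 66.2% were called, 33.1% higher and 33.1% lower, and of the 9 genes in that set, which leaves out SMAD7, 3 were called higher and 5 lower. The share called higher, 3 of 9, was thus close to the background at that level, while the share called lower, 5 of 9, was above it. Neither share was tested against the background. The median log2 fold change was -0.11 over the 10 genes and -0.01 over all IDs tested. The 8 called genes were also those whose libraries did not overlap between groups, a property that 72.9% of all IDs tested shared. The sizes were moderate, since 1338 other IDs called lower fell by more than SMAD3 and 2802 IDs called higher rose by more than SKIL.

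**Figure D1:**
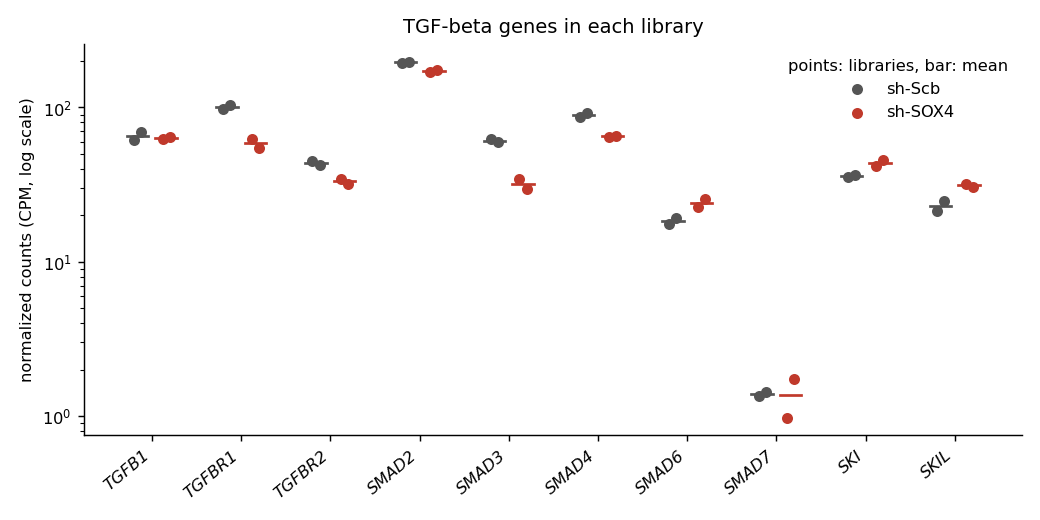
Normalized counts (CPM, log scale) of the 10 TGF-beta genes in each library, with 2 sh-Scb libraries in grey and 2 sh-SOX4 libraries in red and a bar at each group mean. The groups overlap for TGFB1 and SMAD7, and SMAD3 shows the widest gap, with means of 61.0 and 31.9 CPM.

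**Figure D2:**
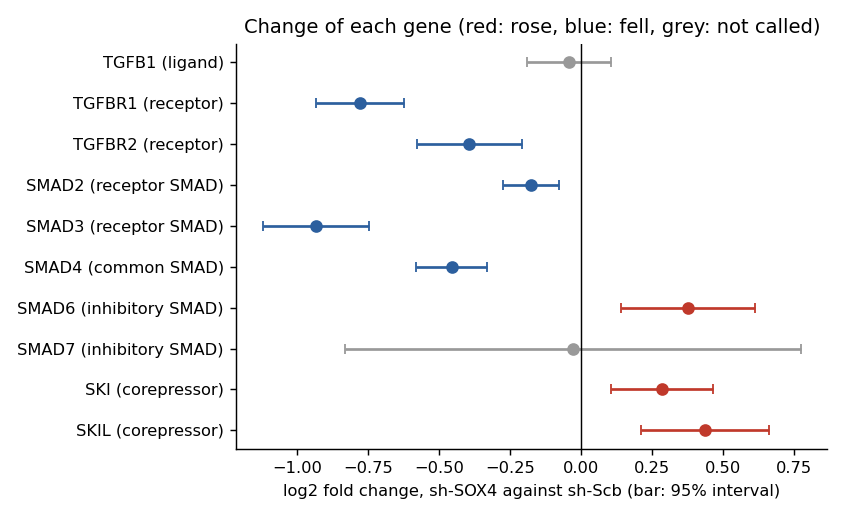
Log2 fold change of each gene in sh-SOX4 against sh-Scb, with its 95% interval from the fitted model. The receptors and SMAD2, SMAD3 and SMAD4 lie below 0, SMAD6, SKI and SKIL lie above 0, and the intervals of TGFB1 and SMAD7 include 0.

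Sequence before the start sites was examined for 9 of the 10 genes in RefSeq promoter entries (GRCh38.p14), of which the 250 bases before each start were used. These genes have 24 entries, since TGFBR1 alone has 8. The motifs searched, on both strands, were GTCTAGAC, the palindrome to which SMAD3 and SMAD4 are known to bind, CAGACA, a SMAD-binding hexamer, GGCGCC, a GC-rich SMAD element, and ACAAAG, a hexamer that SOX proteins bind. Of 35116 entries in the whole table, 0.18% hold the palindrome, 13.61% CAGACA, 16.38% GGCGCC and 13.72% ACAAAG. Among the 24 entries, 1 holds the palindrome, 3 hold CAGACA, 6 hold GGCGCC and 3 hold ACAAAG. The sequences below are those of the first entry of SMAD6, which holds the palindrome, of both receptors, which hold the SOX hexamer, and of SMAD3, the gene with the largest change. Capitals mark any of these motifs, and no matches overlap. The RefSeq starts of TGFBR1, SMAD3 and SMAD6 lie inside the genes as GENCODE places them, and the last 8 bases of the SMAD6 window are in its first annotated exon, into which the palindrome runs. The windows are chr15:66701986-66702235 (plus strand) for SMAD6, chr9:99104863-99105112 (plus strand) for TGFBR1, chr3:30606106-30606355 (plus strand) for TGFBR2 and chr15:67065352-67065601 (plus strand) for SMAD3.
SMAD6: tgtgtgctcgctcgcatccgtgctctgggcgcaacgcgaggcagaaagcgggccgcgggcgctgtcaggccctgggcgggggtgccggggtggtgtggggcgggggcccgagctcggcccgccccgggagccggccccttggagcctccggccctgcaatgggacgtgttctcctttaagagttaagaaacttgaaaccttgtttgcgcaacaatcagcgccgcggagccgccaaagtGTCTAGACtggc
TGFBR1: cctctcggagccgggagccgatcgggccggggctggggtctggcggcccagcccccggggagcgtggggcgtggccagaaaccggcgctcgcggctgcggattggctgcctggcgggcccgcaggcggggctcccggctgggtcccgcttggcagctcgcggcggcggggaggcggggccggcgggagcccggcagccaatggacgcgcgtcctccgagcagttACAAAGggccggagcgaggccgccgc
TGFBR2: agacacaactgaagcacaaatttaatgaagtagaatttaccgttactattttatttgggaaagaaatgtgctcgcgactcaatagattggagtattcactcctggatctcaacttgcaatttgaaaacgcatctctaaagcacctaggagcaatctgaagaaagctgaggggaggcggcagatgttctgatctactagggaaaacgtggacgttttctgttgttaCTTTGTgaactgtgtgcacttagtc
SMAD3: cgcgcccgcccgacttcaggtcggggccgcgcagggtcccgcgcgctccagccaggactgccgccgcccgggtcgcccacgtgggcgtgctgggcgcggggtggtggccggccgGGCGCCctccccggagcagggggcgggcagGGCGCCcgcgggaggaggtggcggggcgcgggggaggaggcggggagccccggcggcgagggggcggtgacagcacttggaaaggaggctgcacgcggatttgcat

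The palindrome of SMAD6 begins 12 bases before the start site, and SMAD6 was the 1 gene of the 9 with this motif in any entry. The SOX hexamer begins 26 bases before the start in TGFBR1 and, on the other strand, 25 bases before it in TGFBR2. It is in 2 of the 8 entries of TGFBR1, in 1 of the 2 of TGFBR2 and in none of the other 7 genes. These 3 of 24 entries are no larger a share than the 13.72% of all entries that hold it. GGCGCC begins 136 and 106 bases before the start of SMAD3. Their base composition differs widely: G and C make up 40.8% of the TGFBR2 window, 68.0% of that of SMAD6, 79.6% of that of TGFBR1 and 80.8% of that of SMAD3, against a median of 58.0% over all entries. These matches describe the letters in the windows, and binding was not measured.

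TGFB1 (ENSG00000105329, chromosome 19, 41301587 to 41353911 on GRCh38, minus strand) encodes the ligand TGF-beta 1. Its level was 62.0 and 68.9 CPM in sh-Scb and 62.9 and 64.0 CPM in sh-SOX4. The libraries overlap, and both sh-SOX4 values lie between the sh-Scb values. The log2 fold change was -0.04 (SE 0.066, n = 2 per group), with an edgeR adjusted p of 0.632. The 95% interval runs from 87.6% to 108% of the control level, so that a change as large as that of either receptor lies outside it. Of its 3238 exonic bases, 215 also lie in HNRNPUL1 on the opposite strand, a gene with 12316 to 15596 counts per library, and the sources used here do not give whether counting used strand.

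Both receptor genes fell. TGFBR1 (ENSG00000106799, chromosome 9, 99104038 to 99154192, plus strand), the type I receptor kinase that phosphorylates SMAD2 and SMAD3, was at 98.1 and 104 CPM in sh-Scb and at 62.6 and 54.9 CPM in sh-SOX4. Both sh-SOX4 libraries were well below both sh-Scb libraries. The log2 fold change was -0.78 (SE 0.069), which left 58.3% of the control level (95% interval 52.4% to 64.9%), with an edgeR adjusted p of 1.34e-05. TGFBR2 (ENSG00000163513, chromosome 3, 30606502 to 30694142, plus strand), the type II receptor that binds the ligand, was at 45.2 and 42.1 CPM in sh-Scb and at 34.6 and 31.9 CPM in sh-SOX4. Its groups did not overlap either, but the gap was smaller. It fell by 0.39 on the log2 scale (SE 0.083), with an edgeR adjusted p of 0.00334 and 76.1% of the control level left (95% interval 66.9% to 86.6%). No exonic base of either gene is shared with another annotated gene.

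Of the SMADs that receptors activate, SMAD3 fell far more than SMAD2. SMAD3 (ENSG00000166949, chromosome 15, 67063763 to 67195195, plus strand) binds DNA directly. Its counts were 2358 and 1794 under sh-Scb against 1085 and 883 under sh-SOX4, or 62.4 and 59.6 CPM against 34.2 and 29.7 CPM. Every sh-SOX4 value was below 60% of the lower sh-Scb value. Its log2 fold change of -0.93 (SE 0.083) left 52.4% of the control level (95% interval 46.0% to 59.6%), with an edgeR adjusted p of 1.25e-05. SMAD2 (ENSG00000175387, chromosome 18, 47808957 to 47931146, minus strand), whose main protein form does not bind DNA by itself, was at 195 and 198 CPM in sh-Scb and at 171 and 176 CPM in sh-SOX4. The groups were apart by a small step, and libraries within a group were close. It fell by 0.18 on the log2 scale (SE 0.044), with an edgeR adjusted p of 0.00866, but leaving out sh-SOX4 replicate 1 ended the call (adjusted p = 0.0826). The 95% intervals of both changes, from 46.0% to 59.6% for SMAD3 and from 82.6% to 94.7% for SMAD2, do not overlap.

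SMAD4 (ENSG00000141646, chromosome 18, 51028394 to 51085045, plus strand), the common partner that SMAD2 and SMAD3 share with the SMADs of bone morphogenetic protein (BMP) signalling, was at 86.3 and 91.9 CPM in sh-Scb and at 64.8 and 65.0 CPM in sh-SOX4. The sh-SOX4 libraries were nearly equal and both lay below the sh-Scb libraries. The log2 fold change was -0.46 (SE 0.056), which left 72.9% of the control level (95% interval 66.8% to 79.5%), with an edgeR adjusted p of 0.000107. An overlapping gene on the same strand, ENSG00000267699, shares 967 of the 13123 exonic bases of SMAD4 but held 4 to 18 counts per library, against 1936 to 3261 for SMAD4.

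The inhibitory SMADs did not move together. SMAD6 (ENSG00000137834, chromosome 15, 66702228 to 66782848, plus strand), known mainly as a brake on BMP receptors, was at 17.7 and 19.2 CPM in sh-Scb and at 22.5 and 25.3 CPM in sh-SOX4. Both sh-SOX4 libraries were higher. The log2 fold change was 0.38 (SE 0.11), with an edgeR adjusted p of 0.0158. The call was lost without sh-Scb replicate 1 (adjusted p = 0.0578), without sh-SOX4 replicate 2 (adjusted p = 0.118) and with scaling to library totals (adjusted p = 0.0581). SMAD7 (ENSG00000101665, chromosome 18, 48919853 to 48952052, minus strand), which recruits ubiquitin ligases to TGFBR1 and is a direct target of SMAD3 in many cells, had only 51 and 43 counts under sh-Scb against 31 and 52 under sh-SOX4. In CPM these were 1.35 and 1.43 against 0.977 and 1.75, so that the sh-SOX4 libraries lay on either side of both controls. The log2 fold change of -0.03 (SE 0.36) had an edgeR adjusted p of 0.956, and its 95% interval from 56.2% to 171% of the control level is too wide at this depth to show a change of the size seen in TGFBR1.

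Both corepressor genes rose. SKIL (ENSG00000136603, chromosome 3, 170357678 to 170396835, plus strand), whose protein TGF-beta signalling is known to degrade and whose gene it then induces, was at 21.4 and 24.9 CPM in sh-Scb and at 32.0 and 30.6 CPM in sh-SOX4. Both sh-SOX4 libraries were higher than either control. The log2 fold change was 0.44 (SE 0.10), with an edgeR adjusted p of 0.00558. SKI (ENSG00000157933, chromosome 1, 2228695 to 2310119, plus strand), the founding member of the family, was at 35.3 and 36.4 CPM in sh-Scb and at 41.6 and 45.7 CPM in sh-SOX4. Its groups did not overlap, with the sh-SOX4 libraries further apart from each other than the controls. It rose by 0.28 on the log2 scale (SE 0.081), with an edgeR adjusted p of 0.0163. The call of SKI was lost without sh-SOX4 replicate 2 (adjusted p = 0.121) and with scaling to library totals (adjusted p = 0.089), while SKIL kept its call in both.

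Since depth and scaling cancel within a library, ratios of counts show the same contrasts without normalization. SKIL was counted 0.343 and 0.418 times for each SMAD3 count in sh-Scb and 0.935 and 1.03 times in sh-SOX4, a 2.58-fold higher mean. For SKI the ratio to SMAD3 went from 0.565 and 0.61 to 1.21 and 1.54, and for SMAD6 from 0.283 and 0.322 to 0.658 and 0.854. Each of these 3 ratios was higher in both sh-SOX4 libraries than in both controls. SMAD3 per SMAD2 count was 0.32 and 0.301 in the controls against 0.2 and 0.168 in sh-SOX4, and TGFBR1 per TGFBR2 count was 2.17 and 2.46 against 1.81 and 1.72. SKIL per SKI count overlapped between the groups, at 0.607 and 0.684 against 0.769 and 0.67. These ratios are given as a description, with no test; with 2 libraries against 2, an exact two-sided permutation test cannot give a p under 0.333.

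**Figure D3:**
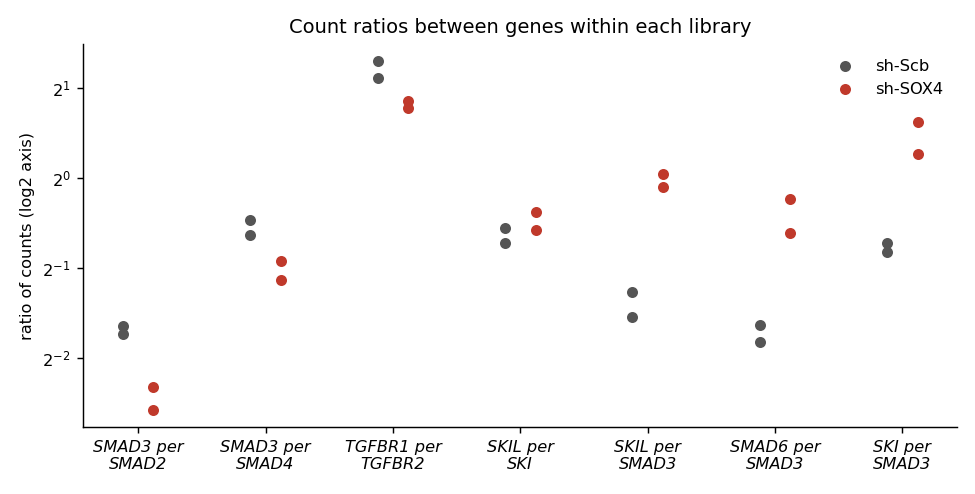
Ratio of counts between pairs of the genes within each library (log2 axis), with sh-Scb libraries in grey and sh-SOX4 libraries in red. The ratios of SKIL, SMAD6 and SKI to SMAD3, which share the fall of SMAD3, are higher in both sh-SOX4 libraries, and SKIL per SKI overlaps between the groups.

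Levels of different genes can be compared only per length. In sh-Scb, per kilobase of annotated exon (GENCODE release 29), TGFB1 stood highest at 20.2 ± 1.5 CPM per kb (SD, n = 2), followed by TGFBR1 at 14.7 ± 0.557 and TGFBR2 at 9.27 ± 0.459 CPM per kb. SMAD4 and SMAD3 followed at 6.79 ± 0.306 and 6.69 ± 0.218 CPM per kb, which differ by less than their SD, and then SKI at 5.89 ± 0.128 and SMAD2 at 5.40 ± 0.0634 CPM per kb. SKIL at 2.97 ± 0.315 and SMAD6 at 2.15 ± 0.126 CPM per kb were lower, and SMAD7 was lowest at 0.276 ± 0.0111 CPM per kb. In sh-SOX4, TGFBR1 was at 8.58 ± 0.792, SKI at 7.17 ± 0.476 and TGFBR2 at 7.06 ± 0.412 CPM per kb, so that SKI and TGFBR2 no longer differed beyond their SD, and SMAD3 at 3.50 ± 0.353 CPM per kb was below SKIL at 4.02 ± 0.127 CPM per kb by this length. The order of the middle genes depends on the length used, since the exons of SMAD2 cover 36366 bases and those of SMAD3 9113. With the median length of their annotated coding transcripts in the GENCODE basic set, 10445 bases for SMAD2 and 1530 for SMAD3, SMAD3 ranked highest in sh-Scb at 39.8 CPM per kb and SMAD2 the third at 18.8 CPM per kb. By that length SMAD3 stayed above SKIL in sh-SOX4, at 20.9 ± 2.10 and 10.8 ± 0.341 CPM per kb. SMAD7 was lowest by either length.

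SMAD6 and SMAD3 are neighbours on chromosome 15, in the same orientation, and moved in opposite directions. The end of SMAD6 and the start of SMAD3 are 281 kb apart, and none of the 5 gene IDs that lie wholly between them had enough counts to be tested. Of the 16 nearest tested coding genes on either side of the 8 called genes, 2 were called in the same direction as the TGF-beta gene beside them, 6 in the opposite direction and 8 were not called. SMAD3 and SMAD6, each beside the other, are 2 of those 6. Without them 14 neighbours are left, 2 called in the same direction, 4 in the opposite direction and 8 not called, which is 42.9% called against 44.1% of all IDs. The 2 were MEX3C beside SMAD4, with a log2 fold change of -0.63, and RPL22L1 beside SKIL, with 0.86. Both were named after their values were seen.

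Further pathway genes were read from 9 lists by role. Of 105 such genes, 93 were tested, 20 were called higher and 21 lower, which is 44.1% of those tested and the same share as among all IDs. Scaled to library totals, 15 were called higher and 30 lower. Their median log2 fold change was -0.07. Among ligands and the genes that store or release them, 2 of 11 tested rose and 4 fell, which is 54.5% called against 44.1% of all IDs. The latent TGF-beta binding protein genes LTBP4 and LTBP1, whose products tether latent ligand to the matrix, fell by 0.70 (SE 0.086) and by 0.67 (SE 0.11) on the log2 scale, and ITGB6, a subunit of an integrin that releases the ligand, fell from 1.31 ± 0.0617 to 0.227 ± 0.0358 CPM (SD, n = 2). NRROS, which holds latent TGF-beta 1 on some myeloid and glial cells, rose from 71.7 ± 5.07 to 136 ± 6.01 CPM (SD, n = 2). The other called genes were LTBP3, with a log2 fold change of -0.57, and TGFB3, with 0.42, both named after their values were seen. TGFB3 lost its call without sh-Scb replicate 2 and without either sh-SOX4 replicate, at adjusted p-values between 0.0538 and 0.056.

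Of 12 other receptors and co-receptors tested, for TGF-beta or related ligands, 2 fell and 1 rose, which is 25.0% called against 44.1% of all IDs. Changes outside the test were not all small: ENG had a log2 fold change of -0.537 (SE 0.44) and ACVR2A of 0.535 (SE 0.23), both named after their values were seen. The activin type II receptor gene ACVR2B had a log2 fold change of -0.30 (SE 0.066) and the BMP receptor gene BMPR1A of -0.33 (SE 0.079). ACVRL1 rose from 0.209 ± 0.0334 to 0.718 ± 0.124 CPM (SD, n = 2), but on 7 to 24 counts per library, and it lost its call when any 1 library was left out, at adjusted p-values between 0.0588 and 0.155. None of the 3 BMP-branch SMADs, SMAD1, SMAD5 and SMAD9, passed edgeR's test, with log2 fold changes of 0.09, -0.105 and -0.225. Of 5 tested BMP and activin ligand genes, 1 rose, GDF11, from 49.1 ± 6.57 to 69.5 ± 0.906 CPM (SD, n = 2).

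Regulators of the receptors and SMADs went both ways, with 6 of 19 higher and 6 lower, which is 63.2% called against 44.1% of all IDs. All 19 had at least 10 CPM in 2 libraries, and among IDs at that level 66.2% were called. PMEPA1, a membrane protein induced by TGF-beta that keeps SMAD2 and SMAD3 from the receptor, fell from 105 ± 1.64 to 56.4 ± 1.46 CPM (SD, n = 2). PPM1A, a phosphatase reported to act on SMAD2 and SMAD3, fell by 0.53 (SE 0.052) on the log2 scale, while STRAP, a receptor-associated protein that assists SMAD7, rose by 0.65 (SE 0.046). Among nuclear partners of SMADs, 6 of 18 rose and 3 fell, which is 50.0% called. TFDP1, the dimer partner of E2F factors, rose from 171 ± 4.25 to 297 ± 0.752 CPM (SD, n = 2), RUNX3, a T cell factor that cooperates with SMADs, rose by 0.71 (SE 0.060) and the coactivator gene CREBBP by 0.48 (SE 0.066). In SMAD-independent signalling, 2 of 9 rose and 1 fell, which is 33.3% called. ROCK1 rose by 0.31 (SE 0.045) and RHOA by 0.16 (SE 0.042), and TAB2, an adaptor of the kinase TAK1, fell by 0.36 (SE 0.049). RHOA lost its call with library totals (adjusted p = 0.242), with the filter of at least 10 CPM (adjusted p = 0.0549) and without sh-SOX4 replicate 2 (adjusted p = 0.091). Adjusted p-values from edgeR for the genes named in this paragraph ran from 4.53e-07 for TFDP1 to 0.0104 for RHOA.

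Of 17 genes known to be raised by TGF-beta in other cells, 12 were tested, 5 fell and 1 rose, which is 50.0% called against 44.1% of all IDs, with a median log2 fold change of -0.24. BHLHE40, a transcriptional repressor, fell from 37.2 ± 0.789 to 15.1 ± 0.0542 CPM (SD, n = 2). KLF10, also called TGF-beta inducible early gene, fell from 64.3 ± 7.37 to 31.8 ± 1.29 CPM (SD, n = 2). CDKN1A, which encodes the cell cycle inhibitor p21, fell by 0.52 (SE 0.094) on the log2 scale. The other genes that fell were ITGA1 and the collagen gene COL1A1, which also makes up the fibroblast marker sum, with log2 fold changes of -0.42 and -0.54, and FN1, the fibronectin gene, rose by 0.78, all 3 named after their values were seen. FN1 was counted 136 and 210 times in the sh-SOX4 libraries and lost its call without sh-SOX4 replicate 2 (adjusted p = 0.311) and with library totals (adjusted p = 0.0521). CDKN2B and CCN2, widely used TGF-beta targets, had 0 counts in all 4 libraries. Of 4 genes known to be lowered by TGF-beta in other cells, MYC rose 3.81-fold, from 50.7 ± 2.07 to 193 ± 0.977 CPM (SD, n = 2), and ID1, ID2 and ID3 did not pass. That is 25.0% called against 44.1% of all IDs.

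**Figure D4:**
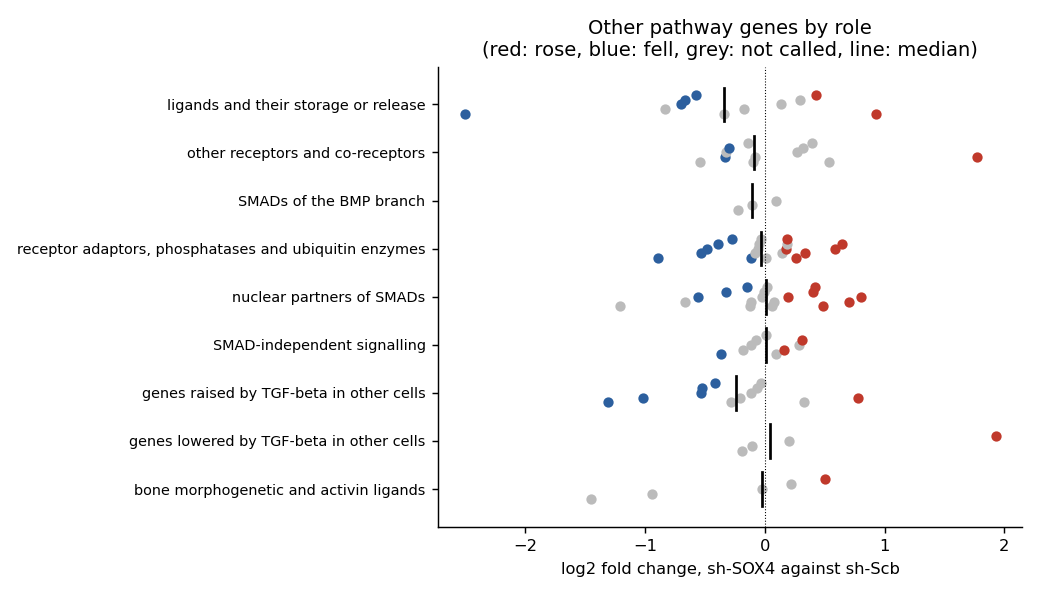
Log2 fold change of the 93 other tested pathway genes, grouped by role, with genes called higher in red, lower in blue, others in grey and a line at the median of each group. The lists hold changes in both directions, and the genes raised by TGF-beta in other cells have 5 called lower and 1 called higher.

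The calls of TGFBR1, SMAD3 and SMAD4 held under all 12 alternative settings, including a test against a 1.2-fold change, which the other 5 called genes did not pass. In that test 26.9% of all IDs were called, 13.9% higher and 13.0% lower, so the 3 lower genes stand beside that share. Without sh-Scb replicate 1 or 2, 21.4% and 20.5% of all IDs were called higher, and without sh-SOX4 replicate 1 or 2, 19.3% and 18.0%, with 2, 3, 3 and 1 of the genes in that order. SMAD3 ranged from -1.03 to -0.84, TGFBR1 from -0.88 to -0.69 and SMAD4 from -0.56 to -0.41 on the log2 scale.

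**Figure D5:**
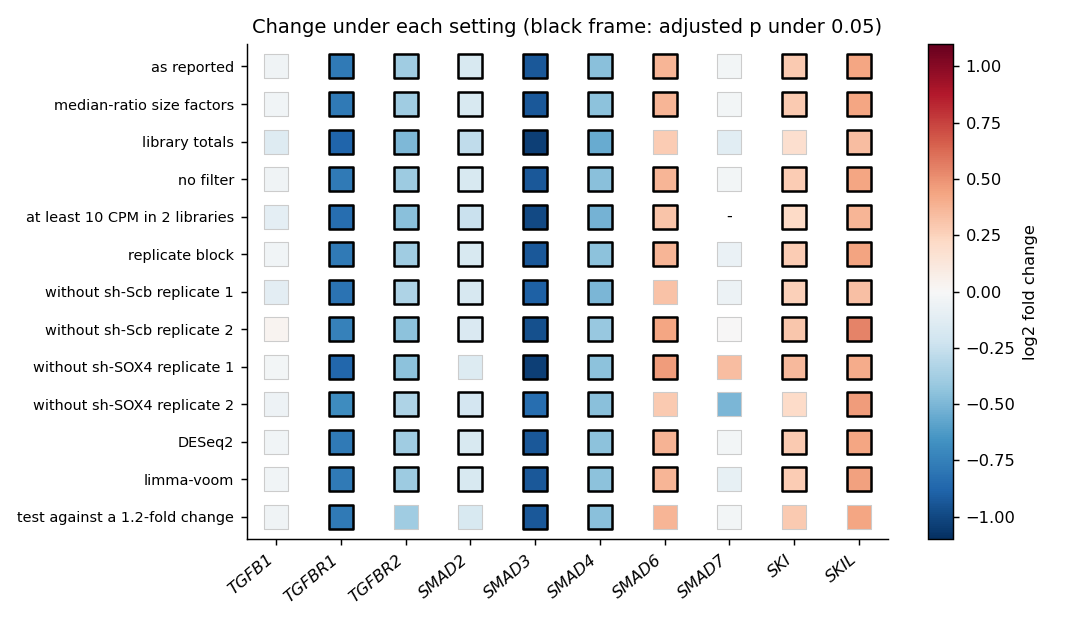
Log2 fold change (color) of each gene under every setting, with a black frame where the adjusted p was under 0.05 and a dash where the gene was filtered out. TGFBR1, SMAD3 and SMAD4 are framed in every row, and SKI and SMAD6 lose their frames with library totals and without sh-SOX4 replicate 2.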

How the data were processed

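RNA was extracted with TRIzol and made into libraries with an Illumina TruSeq RNA kit, per the labels' protocols. The authors deposited whole-number counts per Ensembl gene ID, not normalized. HISAT2 2.2.0, StringTie and hg38 are named in the submitters' processing notes; which annotation was counted, whether strand was used and how rows were filtered are points not given in the sources used here. Control columns are named NC and were taken as sh-Scb because the other columns name SOX4. A symbol was found for 56591 IDs, holding 98.2% of counts. Positions and exon lengths came from GENCODE release 29 (GRCh38).

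Low IDs were removed by filterByExpr (edgeR 4.0.16 in R 4.3.3, at least 10 counts and a total of 15). TMM factors scaled the libraries, and the robust quasi-likelihood model had the group as its term, with Benjamini-Hochberg adjustment over 19897 IDs and 2 residual degrees of freedom. CPM values use TMM-scaled library sizes. An SE is the log2 fold change divided by the square root of F. Intervals of fold changes come from the model. Within groups the median chi-square per gene was 1.71 and 1.60, against 0.455 for sampling alone, so no library was treated as a duplicate. Alternatives also used DESeq2 1.42.0 and limma 3.58.1. The pipeline was tested on simulated counts.

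The genes and lists were chosen with earlier results of these data known. The naming rule took the 10 genes and, per list, the 3 called genes with the smallest adjusted p, all called genes where 5 or fewer were called, and any called gene changed by at least 1 on the log2 scale. Exceptions are marked where they stand. Single values of some listed genes, and 1 marker list, are not reported here.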

Additional observations from a re-analysis of the deposited data

How the results depend on the processing

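Of 12 alternatives, median-ratio size factors, no filter, DESeq2 and limma-voom changed no call among the 10 TGF-beta genes, and requiring 10 CPM in 2 of the libraries, where 66.2% of IDs were called, changed none among the 9 kept, leaving out SMAD7. Among all IDs, scaling to library totals moved the median log2 fold change from -0.01 to -0.109 and the calls to 3629 higher and 5260 lower. Under it 1 of the TGF-beta genes, SKIL, was called higher, in place of 3. In the test against a 1.2-fold change, 2757 IDs were called higher and 2591 lower, 0 of the TGF-beta genes higher and 3 lower, and 11 other pathway genes higher and 14 lower. There SKIL had an adjusted p of 0.0621 and TGFBR2 of 0.0748. Leaving out each library in turn gave 1 to 3 TGF-beta genes higher. TGFB1 and SMAD7, which were not called, changed sign without sh-Scb replicate 2, TGFB1 to 0.029 (leave-one-out range -0.115 to 0.029) and SMAD7 to 0.006, and SMAD7 also without sh-SOX4 replicate 1, to 0.337 (leave-one-out range -0.506 to 0.337).

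Same-numbered libraries did not deviate together (correlation -0.028), and the labels give a shared number only. This correlation, with 2 libraries per group, cannot show whether same-numbered libraries were prepared as pairs. With a replicate block, 8378 IDs were called, 4422 higher and 3956 lower, and no call changed among the TGF-beta genes. The length used for levels per kilobase was the 1 alternative added after seeing the data. Depth limits SMAD7, ACVRL1 and ITGB6, with 6 to 52 counts per library. Libraries left alone in a group were assumed to vary like the others.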
